A study of Mus musculus with 4 samples.

Results

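The genes described here encode the receptors through which brain cells respond to glutamate and to gamma-aminobutyric acid (GABA). They were chosen by name: every non-control probe whose gene name marked an AMPA (Gria), kainate (Grik), NMDA (Grin1, Grin2, Grin3), delta (Grid) or metabotropic (Grm) glutamate receptor, or a GABA-A (Gabr) or GABA-B (Gabbr) receptor gene. The rule found 76 probes of 47 genes among 55681 probes and 22329 genes with a probe. The genes fall into 7 families, with 4 AMPA, 5 kainate, 7 NMDA, 2 delta, 8 metabotropic, 19 GABA-A and 2 GABA-B receptor genes. Of the 47 genes, 22 had several probes, and each gene is given by the probe with the highest mean log2 signal over the 4 arrays.

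Total RNA of 4 mouse cultures was labelled with the dye Cy3 and measured on 1 single-colour Agilent array each, so no comparison has a replicate and none was tested. NSCL61-Ceacam1sh was the line NSCL61 with an expression vector for a short hairpin RNA against Ceacam1, a cell adhesion molecule, and NSCL61 was that line as its own control. NSC-Ceacam1L was a culture of neural stem cells with a vector for the Ceacam1L form, and NSC was its control. All 4 cultures were p53-/-, came from the brain of E14.5 embryos, grew in serum-free medium for neural stem cells and, by the shared protocol, were kept under hygromycin for 1 week after transfection. The labels do not say whether the cells labelled NSC and NSCL61 carried an empty vector, nor whether any culture was a clone. The series set NSC-Ceacam1L against NSC, and NSCL61-Ceacam1sh against NSCL61, to look for genes downstream of Ceacam1. Its design also allows NSCL61 to be set against NSC. The NSC array is shared by 2 of these 3 comparisons, and so is the NSCL61 array. All 4 arrays lay on 1 slide, and their number limits the precision of every value below.

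AMPA, kainate and NMDA receptors are ion channels that glutamate opens, and they carry most fast excitation in the brain. Metabotropic glutamate receptors and the GABA-B receptor act through G proteins, whereas GABA-A receptors are chloride channels built from subunits of several classes. Neural stem cells and oligodendrocyte precursors are known to carry receptors of these families before any synapse has formed, and GABA and glutamate are known to influence their division and maturation.

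Levels below are the log2 of a probe's processed signal after division by its array's 75th percentile, so that 0 is the 75th percentile. A probe that the scanner software did not call well above background is called dim, and its level is only an upper limit of uncertain size. A gene was called higher or lower where it differed by 2-fold or more (1 on the log2 scale) and its probe was well above background on the brighter array. The value after ± is the software's modelled error of the spots, combined over the 2 arrays for a difference, and it does not cover variation between cultures. Where the dimmer array was dim, "at least" gives the signal of the brighter array over the lowest signal that passed as well above background on the dimmer array, or over the dim signal itself where that was higher. Such a fold makes no allowance for the modelled error, and where it is taken over the dim signal itself it equals the measured fold. Levels of different probes are not compared.

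The targeted gene gave no check of the labels. None of the probes used here carried the name Ceacam1, and 1 probe named for its paralog Ceacam2 listed a Ceacam1 transcript. Its level was -4.34 on NSCL61-Ceacam1sh, against -5.00 on NSCL61 (dim), and -5.01 on NSC-Ceacam1L (dim), against -4.94 on NSC (dim). Of 8 neural stem cell markers, 7 were well above background on NSCL61-Ceacam1sh, 6 on NSCL61, 8 on NSC-Ceacam1L and 8 on NSC. The NSCL61-Ceacam1sh array went against its labelled cell type in some other markers. Olig1 and Olig2, transcription factors of the oligodendrocyte lineage, were dim there. Of the 8 oligodendrocyte precursor markers 6 were lower than on NSCL61, but 3 stayed well above background. Nkx2-2 was among these 3 and within 2-fold, at -2.25, against -1.96 on NSCL61. Of 7 evaluated fibroblast and mesenchymal markers 6 were higher than on NSCL61 (85.7%, against 23.5% of all genes). The sum of the 8 scaled signals of that fibroblast list was 88.3 on NSCL61-Ceacam1sh, against 0.4 on NSCL61, and 13.7 on NSC-Ceacam1L, against 2.39 on NSC. Loss of cells of a type and loss of RNA from each cell cannot be told apart in such bulk RNA.

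Few receptor genes were measured on the NSCL61-Ceacam1sh array, and most on each of the others. Of the 47 genes, 12 (25.5%) were well above background on NSCL61-Ceacam1sh, 25 (53.2%) on NSCL61, 32 (68.1%) on NSC-Ceacam1L and 25 (53.2%) on NSC. Over all 22329 genes the same shares were 62.7%, 65.3%, 67.2% and 63.3%. At least 1 array measured 38 receptor genes (80.9%, against 74.3% of all genes), and 9 were dim on all 4 arrays. Among those 9 were the NMDA subunit gene Grin2c, the metabotropic receptor gene Grm6 and the GABA-A subunit genes Gabra5, Gabra6, Gabrp, Gabrq and Gabrr3. All 4 arrays measured 8 genes, including Gria4, Grik5, Grm2, Gabre, Gabrr1, Gabrr2 and Gabbr1.

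**Figure D1:**
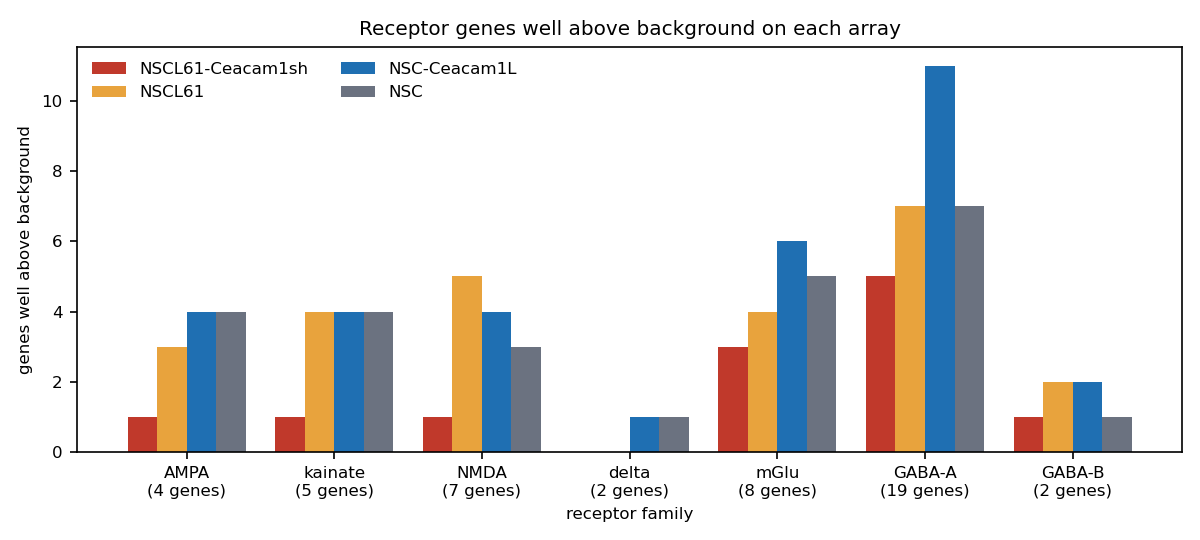
Number of receptor genes (y axis) whose probe was well above background, for each family (x axis, with the number of genes in the family) on each of the 4 arrays. NSCL61-Ceacam1sh has 1 AMPA, 1 kainate and 1 NMDA gene, against 3, 4 and 5 on NSCL61. NSC-Ceacam1L has 11 GABA-A genes, against 7 on NSC.

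With Ceacam1L, receptor genes were higher or within 2-fold, and none was lower. In NSC-Ceacam1L minus NSC, 8 of 32 evaluated receptor genes (25%) were higher and 0 were lower. Over all genes evaluated in that comparison, 10.4% were higher and 6.13% lower (16.6% in either direction). The 8 genes included Gria1, Grik3, Grin2d, Grm8, Gabra4, Gabrb1 and Gabbr2, with at least 1 from each family except the delta receptors. For 5 of the 8 the NSC array was dim, and of the genes that both arrays measured 3 were higher and 0 lower, against 6.43% and 4.62% over all genes. Without a filter on dim probes 2 genes that were dim on both arrays, Grin3b among them, would count as lower.

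Under the hairpin the glutamate receptor genes were mostly lower. In NSCL61-Ceacam1sh minus NSCL61, 18 of 28 evaluated receptor genes (64.3%) were lower and 3 (10.7%) were higher. This comparison moved many genes: of all those evaluated, 24.2% were lower and 23.5% higher (47.7% in either direction). The share of receptor genes that were lower therefore stood above the background, and the share that were higher stood below it. Among the genes of ion-channel glutamate receptors, 11 of 12 were lower and 0 higher. For 8 of these 11 the NSCL61-Ceacam1sh array was dim, and the bound was 2-fold or more for only 6 of the 8. It was 1.45-fold for Grin2b and 1.88-fold for Grin3b. Spike-in scaling lost the calls of Gria1, Grik5, Grin2b and Grin3b. For 13 of the 18 lower genes and all 3 higher genes the dimmer array was dim, and of genes well above background on both arrays 5 of 9 were lower and 0 higher, against 18.2% and 20.9% over all genes. Gria4 is among these 5 and among the 11 ion-channel genes by its chosen probe (-3.21), whereas its other probe gave 3.50. The median difference of the 28 receptor genes was -1.43, against 0.01 for all evaluated genes. With dim arrays at their bound the medians were -1.06 and 0.0096.

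Between the line and the stem cells, more receptor genes were lower in the line than higher. In NSCL61 minus NSC, 14 of 32 evaluated receptor genes (43.8%) were lower and 4 (12.5%) were higher, and over all evaluated genes 14.1% were lower and 14.4% higher (28.4% in either direction). The 4 higher genes were Grik1, Grik3, Grin2d and Gabbr2. Where both arrays were well above background, 7 receptor genes were lower and 1 higher, and the shares over all genes were 10.8% and 10.4%. The median difference of the 32 receptor genes was not lower, at 0.11, against 0.03 for all evaluated genes. With dim arrays at their bound the medians were 0.03 and 0.01.

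Of the 22 receptor genes evaluated in both Ceacam1 comparisons, 5 (22.7%) were higher with Ceacam1L and lower under the hairpin. Gria1, Grik3, Grin2d and Gabbr2 were among them. Over all genes, 572 of 14357 (3.98%) did so. The reverse pattern, lower with Ceacam1L and higher under the hairpin, had 0 of the 22 genes and 2.54% of all genes. A further 10 (45.5%, against 18.6% of all genes) were within 2-fold with Ceacam1L and lower under the hairpin, and 6 (27.3%, against 52.1%) were within 2-fold in both. Gabrb2 (4.55%, against 16.1%) was within 2-fold with Ceacam1L and higher under the hairpin.

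**Figure D2:**
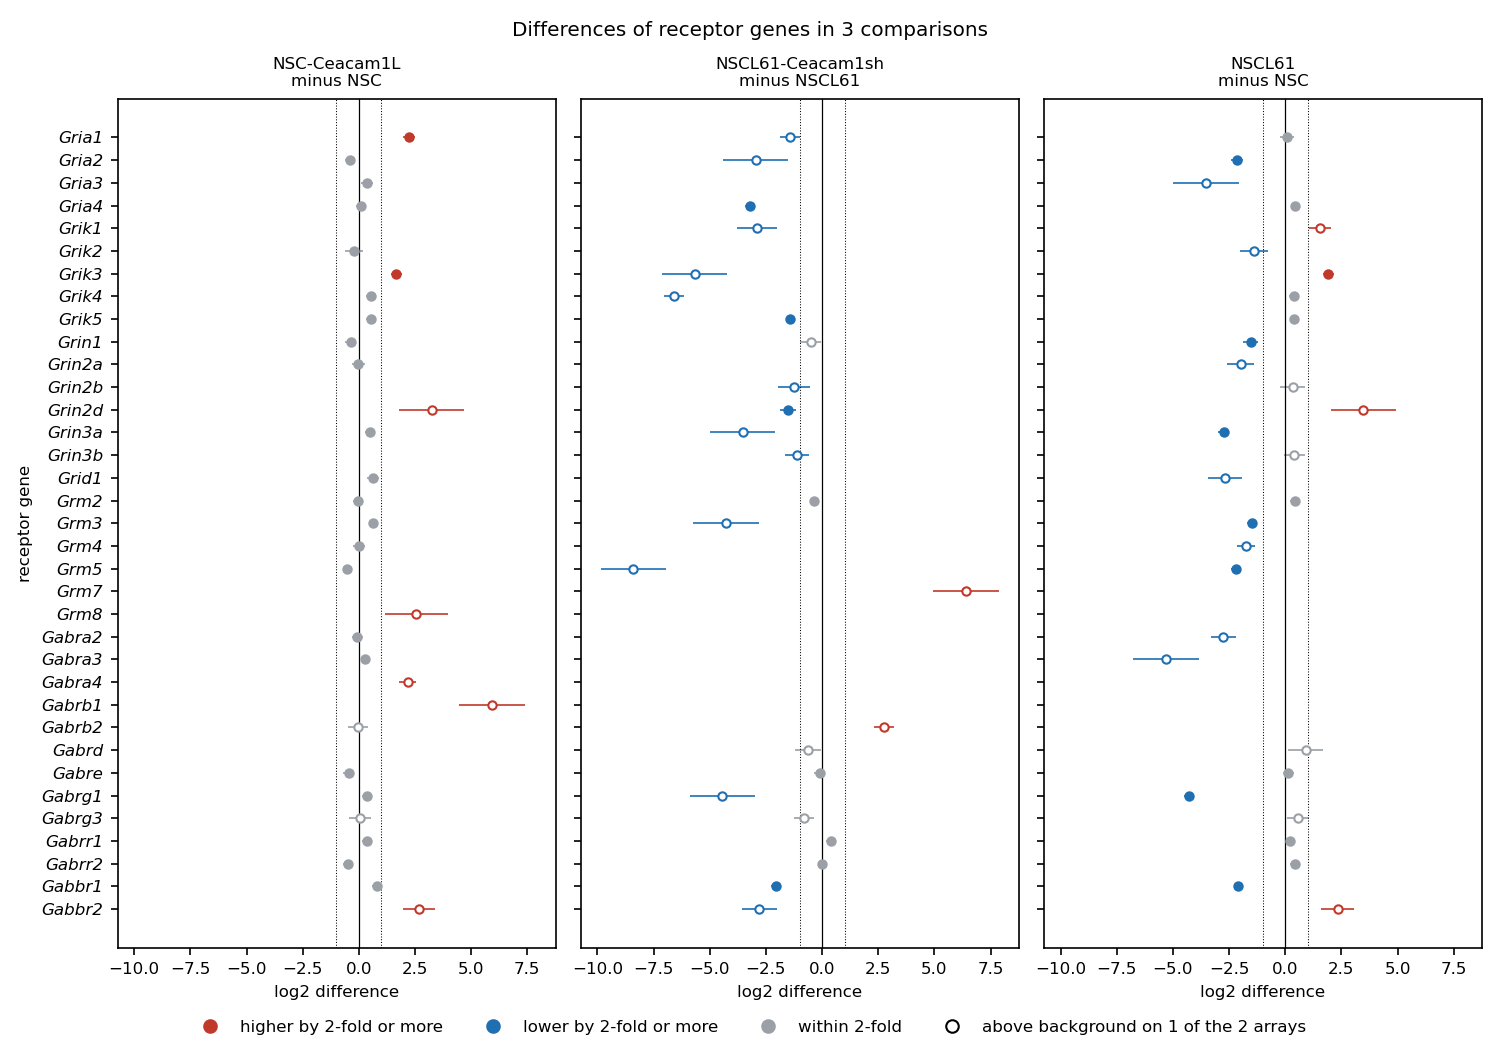
Log2 difference (x axis) of 35 receptor genes measured on at least 1 array (y axis, by family) in the 3 comparisons, shown where at least 1 of the 2 arrays was well above background. Bars are the modelled error of the spots, dotted lines mark 2-fold, and open points have 1 dim array, so that their distance from 0 is uncertain. The left panel has no point at or below the lower line, and in the middle panel 16 points lie at or below it.

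The 4 AMPA receptor subunits form the channels of most fast excitatory synapses. Gria1, for the subunit GluA1, had levels of -4.63 on NSCL61-Ceacam1sh (dim), -3.18 on NSCL61, -1.03 on NSC-Ceacam1L and -3.27 on NSC. It was highest on NSC-Ceacam1L, by 2.24 ± 0.28 over NSC. On NSCL61-Ceacam1sh it was at least 2.73-fold lower than on NSCL61, which is the measured difference of -1.45 ± 0.45. Its probe lies on the plus strand of chromosome 11, 57143613 to 57143672 (mm9). No annotation of that build was used here, so exon or UTR positions of probes are not given. Gria2 encodes GluA2, the subunit that makes the channel impermeable to calcium, and its levels were -6.70 on NSCL61-Ceacam1sh (dim), -3.74 on NSCL61, -1.98 on NSC-Ceacam1L and -1.58 on NSC. It was lower on NSCL61 than on NSC, with a difference of -2.16 ± 0.28, and within 2-fold in NSC-Ceacam1L minus NSC, at -0.40 ± 0.22. Under the hairpin it was at least 2.01-fold lower. Its other probe was higher by 1.28 in NSC-Ceacam1L minus NSC, with NSC dim.

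Gria3, for GluA3, was measured on the 2 stem cell arrays only, at -6.82 on NSCL61-Ceacam1sh (dim), -6.88 on NSCL61 (dim), -2.99 on NSC-Ceacam1L and -3.35 on NSC. It was at least 2.46-fold lower on NSCL61 than on NSC. Gria4 encodes GluA4, a subunit known from immature neurons and oligodendrocyte precursors, and had levels of -3.03 on NSCL61-Ceacam1sh, 0.18 on NSCL61, -0.18 on NSC-Ceacam1L and -0.26 on NSC. The NSCL61-Ceacam1sh array stood apart, with a difference of -3.21 ± 0.23 from NSCL61, while the other 3 arrays lay within 2-fold of each other. The 2 Gria4 probes disagreed. The chosen probe (chromosome 9, 4417896 to 4417955, minus strand) had that difference, whereas the other (4502385 to 4502444) had -3.40 on NSCL61-Ceacam1sh, against -6.90 on NSCL61 (dim), a difference of 3.50. The second probe had -3.05 on NSC-Ceacam1L, against -2.84 on NSC, and NSCL61 minus NSC was -4.06 on it, against 0.44 on the chosen probe. The direction for Gria4 in the hairpin comparison thus depends on the probe, and the transcripts each probe detects were not tested.

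Kainate receptors need a subunit of the Grik1 to Grik3 class to form a channel, and the Grik4 and Grik5 subunits raise its affinity for kainate. Grik1, for GluK1, was measured on NSCL61 alone, at -5.78 on NSCL61-Ceacam1sh (dim), -2.89 on NSCL61, -4.85 on NSC-Ceacam1L (dim) and -4.42 on NSC (dim). It was at least 3.64-fold lower on NSCL61-Ceacam1sh than on NSCL61, and at least 2.61-fold higher on NSCL61 than on NSC. The other Grik1 probe was dim on all 4 arrays. With the median over a gene's probes the higher call in NSCL61 minus NSC was lost, and normexp background correction lost both calls. Grik2, for GluK2, had -4.38 on NSCL61-Ceacam1sh (dim), -5.25 on NSCL61 (dim), -4.08 on NSC-Ceacam1L and -3.85 on NSC. It was at least 1.74-fold lower on NSCL61 than on NSC and was dim on both NSCL61 arrays. Grik3, for GluK3, had levels of -6.55 on NSCL61-Ceacam1sh (dim), -0.88 on NSCL61, -1.14 on NSC-Ceacam1L and -2.80 on NSC. It passed 2-fold in all 3 comparisons, as did Grin2d and Gabbr2, and both arrays measured it in 2 of them: 1.66 ± 0.25 in NSC-Ceacam1L minus NSC and 1.92 ± 0.25 in NSCL61 minus NSC. Under the hairpin it was at least 14.6-fold lower. The other Grik3 probe was dim on all 4 arrays, and with the median over a gene's probes Grik3 stayed within 2-fold in NSC-Ceacam1L minus NSC and in NSCL61 minus NSC, as did Gabbr2 in the first of these.

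The high-affinity subunit genes were more even across 3 arrays. Grik4, for GluK4, had levels of -4.78 on NSCL61-Ceacam1sh (dim), 1.82 on NSCL61, 1.96 on NSC-Ceacam1L and 1.43 on NSC. NSCL61, NSC-Ceacam1L and NSC lay within 2-fold of each other, and NSCL61-Ceacam1sh was at least 94.6-fold below NSCL61. Grik5, for GluK5, had 1.01 on NSCL61-Ceacam1sh, 2.41 on NSCL61, 2.55 on NSC-Ceacam1L and 2.02 on NSC. All 4 arrays measured it, and the hairpin difference was -1.41 ± 0.20, a call that was lost under 2 of the other scalings.

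NMDA receptors pair the obligatory subunit Grin1 with Grin2 or Grin3 subunits, and the common form needs a co-agonist such as glycine beside glutamate. Grin1 had levels of -4.83 on NSCL61-Ceacam1sh (dim), -4.31 on NSCL61, -3.13 on NSC-Ceacam1L and -2.78 on NSC. It was lower on NSCL61 than on NSC, with a difference of -1.54 ± 0.34, and the other 2 comparisons left it within 2-fold. Grin2a had -6.63 on NSCL61-Ceacam1sh (dim), -5.22 on NSCL61 (dim), -3.26 on NSC-Ceacam1L and -3.23 on NSC, and was at least 2.66-fold lower on NSCL61 than on NSC. Grin2b had -5.46 on NSCL61-Ceacam1sh (dim), -4.22 on NSCL61, -4.78 on NSC-Ceacam1L (dim) and -4.54 on NSC (dim). It was measured on NSCL61 alone, near the limit of detection, and its bound under the hairpin was only 1.45-fold. Grin2d, the subunit typical of embryonic and early postnatal brain, had -4.41 on NSCL61-Ceacam1sh, -2.91 on NSCL61, -3.14 on NSC-Ceacam1L and -6.38 on NSC (dim). NSC stood apart as the dim array: Grin2d was at least 2.19-fold higher on NSC-Ceacam1L and at least 2.57-fold higher on NSCL61. The hairpin difference, with both arrays measured, was -1.51 ± 0.36.

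Grin3 subunits bind glycine and lower the calcium entry of the channel. Grin3a had levels of -6.62 on NSCL61-Ceacam1sh (dim), -3.08 on NSCL61, 0.15 on NSC-Ceacam1L and -0.34 on NSC. It was far lower in the line than in the stem cells, with a difference of -2.74 ± 0.24 in NSCL61 minus NSC, and at least 3.18-fold lower again on NSCL61-Ceacam1sh than on NSCL61. Its 2 probes gave the same calls, at -1.65 and -2.74 in NSCL61 minus NSC. Grin3b had -4.96 on NSCL61-Ceacam1sh (dim), -3.84 on NSCL61, -5.62 on NSC-Ceacam1L (dim) and -4.25 on NSC (dim), with a bound of 1.88-fold lower under the hairpin. Grid1, a delta receptor subunit that glutamate does not open and that binds cerebellins, had -6.70 on NSCL61-Ceacam1sh (dim), -5.72 on NSCL61 (dim), -2.41 on NSC-Ceacam1L and -3.03 on NSC. It was at least 3.07-fold lower on NSCL61 than on NSC.

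**Figure D3:**
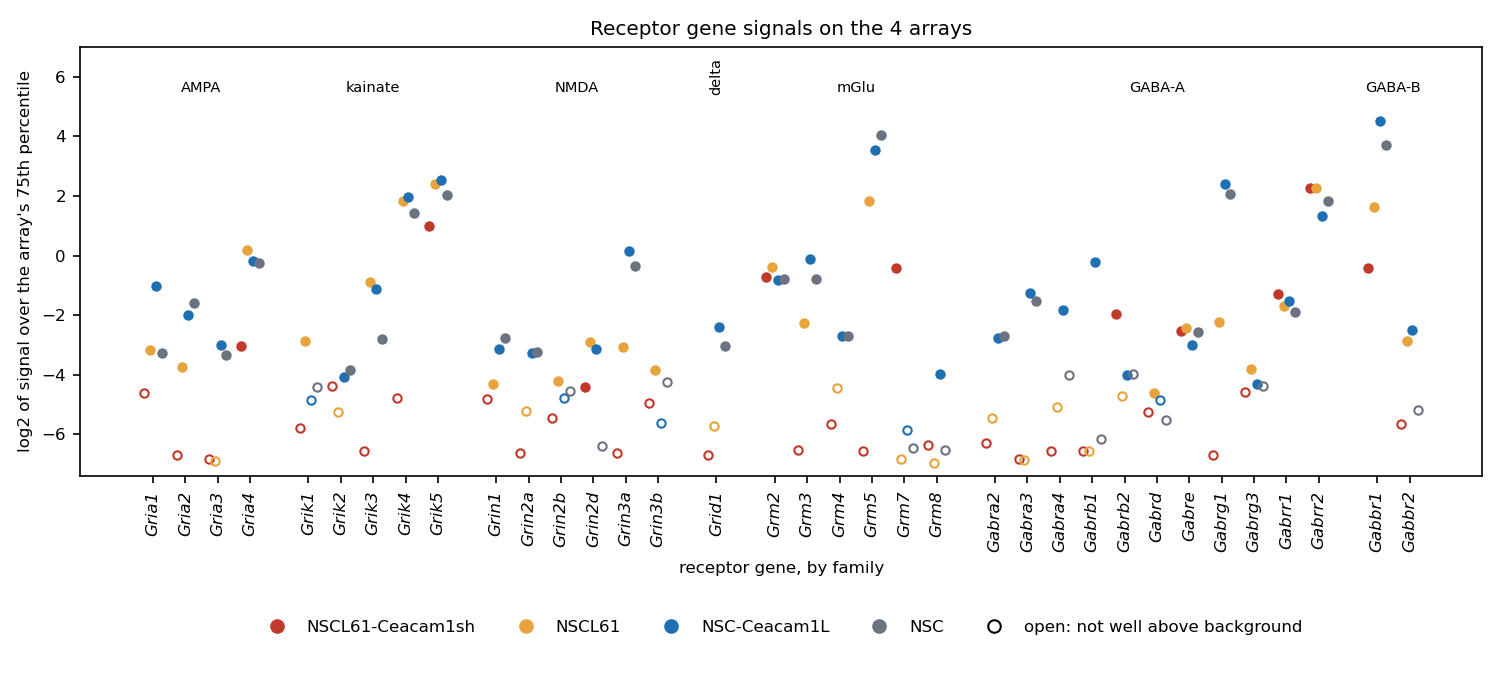
Level (y axis, log2 of signal over the array's 75th percentile) of 35 receptor genes measured on at least 1 array (x axis, by family) on the 4 arrays, with open circles for dim probes. Points of different genes come from different probes and are not comparable in height. For most ion-channel glutamate receptor genes the NSCL61-Ceacam1sh point is open and lies under the others, and for Grm7 and Gabrb2 it lies above them.

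Metabotropic glutamate receptors fall into group I, which raises intracellular calcium and includes Grm5, and groups II (Grm2 and Grm3) and III (Grm4, Grm6, Grm7 and Grm8), which lower cyclic AMP. Grm5 had levels of -6.56 on NSCL61-Ceacam1sh (dim), 1.83 on NSCL61, 3.53 on NSC-Ceacam1L and 4.04 on NSC on its chosen probe (chromosome 7, 95282581 to 95282640, plus strand). It was lower on NSCL61 than on NSC, with a difference of -2.21 ± 0.20, and the chosen probe was at least 95.9-fold lower on NSCL61-Ceacam1sh than on NSCL61. A second probe at 95279335 to 95279394 had -6.74 on NSCL61-Ceacam1sh (dim), against -1.48 on NSCL61, and -1.48 on NSCL61, against 0.61 on NSC. The third, at 94732759 to 94732818, was well above background on all 4 arrays, with -2.27 on NSCL61-Ceacam1sh, against -1.48 on NSCL61, and differed by less than 2-fold in each comparison. Both probes at the downstream end of the gene were thus dim under the hairpin while the upstream probe was not.

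Of the group II genes, Grm2 had -0.71 on NSCL61-Ceacam1sh, -0.37 on NSCL61, -0.83 on NSC-Ceacam1L and -0.78 on NSC, and its 4 arrays lay within 2-fold of each other. Grm3, expressed in glia as well as neurons, had -6.53 on NSCL61-Ceacam1sh (dim), -2.26 on NSCL61, -0.13 on NSC-Ceacam1L and -0.78 on NSC. It was lower on NSCL61 than on NSC (-1.48 ± 0.22) and at least 5.63-fold lower on NSCL61-Ceacam1sh than on NSCL61.

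The group III genes each had a pattern of their own. Grm4 had -5.65 on NSCL61-Ceacam1sh (dim), -4.45 on NSCL61 (dim), -2.69 on NSC-Ceacam1L and -2.69 on NSC. Its chosen probe was at least 3.38-fold lower on NSCL61 than on NSC. The other Grm4 probe was dim on both, at -4.95 on NSCL61 and -4.78 on NSC. That call was lost with the median over a gene's probes and with the probe of greatest signal on any array. The other probe was higher by 3.49 in NSC-Ceacam1L minus NSC, with NSC dim, where the chosen probe differed by 0.00 ± 0.25. Grm7, a presynaptic receptor of low affinity for glutamate, had -0.42 on NSCL61-Ceacam1sh, -6.83 on NSCL61 (dim), -5.86 on NSC-Ceacam1L (dim) and -6.46 on NSC (dim). NSCL61-Ceacam1sh was the only array above background, by at least 18.7-fold over NSCL61. Grm8 had -6.37 on NSCL61-Ceacam1sh (dim), -6.98 on NSCL61 (dim), -3.97 on NSC-Ceacam1L and -6.53 on NSC (dim). It was measured on NSC-Ceacam1L alone, with a bound of 1.23-fold over NSC.

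GABA-A receptors usually join alpha and beta subunits with a gamma or delta subunit, and their genes lie in clusters. The clusters are used here to order the genes; they were taken up after the values were known. On chromosome 5 Gabrg1, Gabra2, Gabra4 and Gabrb1 lie next to each other with the gene Cox7b2 between Gabra2 and Gabra4. The promoters of the 4 receptor genes are shown because these neighbours had different patterns. Each is the 250 bases before a start site in RefSeq (GRCm38.p6), written 5′ to 3′ on the gene's own strand with CG dinucleotides in capitals: Gabrg1 chr5:70842618-70842867 (minus), Gabra2 chr5:71095850-71096099 (minus), Gabra4 chr5:71658309-71658558 (minus) and Gabrb1 chr5:71699682-71699931 (plus, the downstream of 2 start sites).
Gabrg1: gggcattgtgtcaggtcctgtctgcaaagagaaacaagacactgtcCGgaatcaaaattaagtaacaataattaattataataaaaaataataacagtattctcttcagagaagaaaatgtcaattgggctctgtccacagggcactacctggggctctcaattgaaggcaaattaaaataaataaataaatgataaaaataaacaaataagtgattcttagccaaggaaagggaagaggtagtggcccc
Gabra2: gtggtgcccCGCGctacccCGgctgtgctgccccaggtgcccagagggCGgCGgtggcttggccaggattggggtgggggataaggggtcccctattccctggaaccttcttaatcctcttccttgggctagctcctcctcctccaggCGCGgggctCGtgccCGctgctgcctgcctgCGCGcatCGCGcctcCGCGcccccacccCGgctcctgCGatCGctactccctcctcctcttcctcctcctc
Gabra4: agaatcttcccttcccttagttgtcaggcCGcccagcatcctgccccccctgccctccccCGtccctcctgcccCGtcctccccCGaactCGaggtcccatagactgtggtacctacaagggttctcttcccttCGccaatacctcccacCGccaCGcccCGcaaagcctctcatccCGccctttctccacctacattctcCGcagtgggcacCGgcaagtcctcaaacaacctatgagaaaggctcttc
Gabrb1: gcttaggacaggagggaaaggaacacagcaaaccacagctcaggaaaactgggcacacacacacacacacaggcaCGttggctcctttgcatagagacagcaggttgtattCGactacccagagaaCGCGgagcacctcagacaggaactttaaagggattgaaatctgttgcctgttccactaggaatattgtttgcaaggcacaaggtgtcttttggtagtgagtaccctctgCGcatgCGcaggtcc
Gabrg1's window held 1 CG dinucleotide, Gabra2's 18, Gabra4's 12 and the printed Gabrb1 window 6. The window of the first Gabrb1 start, not printed here, held 18, and the median over the first windows of 27025 genes was 6. The first Gabrb1 start lies 387 bases from the start of Gabra4, on the opposite strand, and the second lies 41624 bases away. RefSeq's table held 32 of the 47 receptor genes, whose median count was 10.5. The TATA box TATAAA, searched on both strands, was in 3 of the 32 receptor windows and in 13% of all 27025 windows. None of the 4 printed windows held it.

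Gabrg1, for the gamma-1 subunit that occurs in glial as well as neuronal receptors, had levels of -6.68 on NSCL61-Ceacam1sh (dim), -2.24 on NSCL61, 2.41 on NSC-Ceacam1L and 2.06 on NSC, on a probe printed 10 times on each array (chromosome 5, 71143181 to 71143240, mm9, minus strand). Its difference in NSCL61 minus NSC was -4.30 ± 0.21, the largest decrease among the receptor genes measured on both arrays of that comparison. Under the hairpin it was at least 5.7-fold lower, and its second probe was dim on both NSCL61 arrays. Gabra2 had -6.30 on NSCL61-Ceacam1sh (dim), -5.47 on NSCL61 (dim), -2.78 on NSC-Ceacam1L and -2.71 on NSC. Like Gabrg1, it was lower in the line, by at least 3.82-fold on NSCL61 against NSC, and within 2-fold between NSC-Ceacam1L and NSC.

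The neighbouring pair Gabra4 and Gabrb1 was measured on NSC-Ceacam1L and on no other array. Gabra4 had -6.55 on NSCL61-Ceacam1sh (dim), -5.09 on NSCL61 (dim), -1.85 on NSC-Ceacam1L and -4.02 on NSC (dim). Gabrb1 had -6.56 on NSCL61-Ceacam1sh (dim), -6.55 on NSCL61 (dim), -0.22 on NSC-Ceacam1L and -6.14 on NSC (dim). The bounds over NSC were 4.51-fold for Gabra4 and 16.5-fold for Gabrb1, which was the largest bound among the receptor genes in this comparison. Their probes lie at 71961055 to 71961114 on the minus strand for Gabra4 and at 72528086 to 72528145 on the plus strand for Gabrb1 (mm9), so each reads its own strand. Both genes rest on 1 probe each. Cox7b2, between the alpha genes, was dim on all 4 arrays, and Commd8, the next gene beyond Gabrb1, differed by 0.07 in NSC-Ceacam1L minus NSC.

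Gabrb2, a beta subunit gene on chromosome 11, had -1.96 on NSCL61-Ceacam1sh, -4.72 on NSCL61 (dim), -4.01 on NSC-Ceacam1L and -3.99 on NSC (dim). It was at least 6.42-fold higher on NSCL61-Ceacam1sh than on NSCL61, while Gabra6 on the same chromosome was dim on every array. Gabrg3 on chromosome 7, for the gamma-3 subunit, had -4.60 on NSCL61-Ceacam1sh (dim), -3.80 on NSCL61, -4.33 on NSC-Ceacam1L and -4.38 on NSC (dim), and it lay within 2-fold in each comparison. Its other measured probes gave lower calls under the hairpin, down to -2.43, and higher ones in NSCL61 minus NSC, up to 2.44.

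The X chromosome cluster of Gabre, Gabra3 and Gabrq was divided. Gabra3, an alpha subunit of the embryonic brain, had -6.82 on NSCL61-Ceacam1sh (dim), -6.85 on NSCL61 (dim), -1.25 on NSC-Ceacam1L and -1.53 on NSC. It was dim on both NSCL61 arrays, at least 8.67-fold lower on NSCL61 than on NSC. Its second probe was higher by 4.27 in NSC-Ceacam1L minus NSC, with NSC dim, where the chosen probe differed by 0.29 ± 0.21. Gabre, for the epsilon subunit, had -2.53 on NSCL61-Ceacam1sh, -2.43 on NSCL61, -3.02 on NSC-Ceacam1L and -2.56 on NSC, with all 4 arrays within 2-fold of each other. The second Gabre probe had -6.52 on NSCL61-Ceacam1sh (dim), against -0.73 on NSCL61, and the same -0.73 on NSCL61 stood against -6.11 on NSC (dim).

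Gabrr2 and Gabrr1 on chromosome 4 encode rho subunits, known from the retina. Gabrr2 had 2.26 on NSCL61-Ceacam1sh, 2.25 on NSCL61, 1.34 on NSC-Ceacam1L and 1.84 on NSC. Gabrr1 had -1.28 on NSCL61-Ceacam1sh, -1.68 on NSCL61, -1.52 on NSC-Ceacam1L and -1.90 on NSC. Both genes were within 2-fold in all 3 comparisons. Of their 6 flanking genes 5 passed 2-fold under the hairpin (1 higher and 4 lower), 1 with Ceacam1L and 2 in NSCL61 minus NSC. Over all evaluated genes the shares past 2-fold were 47.7%, 16.6% and 28.4% in the same order. Flanks of the other clusters had fewer past 2-fold under the hairpin. They were 1 of 6 on chromosome 5, 2 of 6 on chromosome 11, 3 of 6 on chromosome 7 and 0 of 5 on the X chromosome. Gabrd, for the delta subunit of receptors outside synapses, had -5.25 on NSCL61-Ceacam1sh (dim), -4.61 on NSCL61, -4.85 on NSC-Ceacam1L (dim) and -5.51 on NSC (dim) and was within 2-fold wherever it was evaluated.

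**Figure D4:**
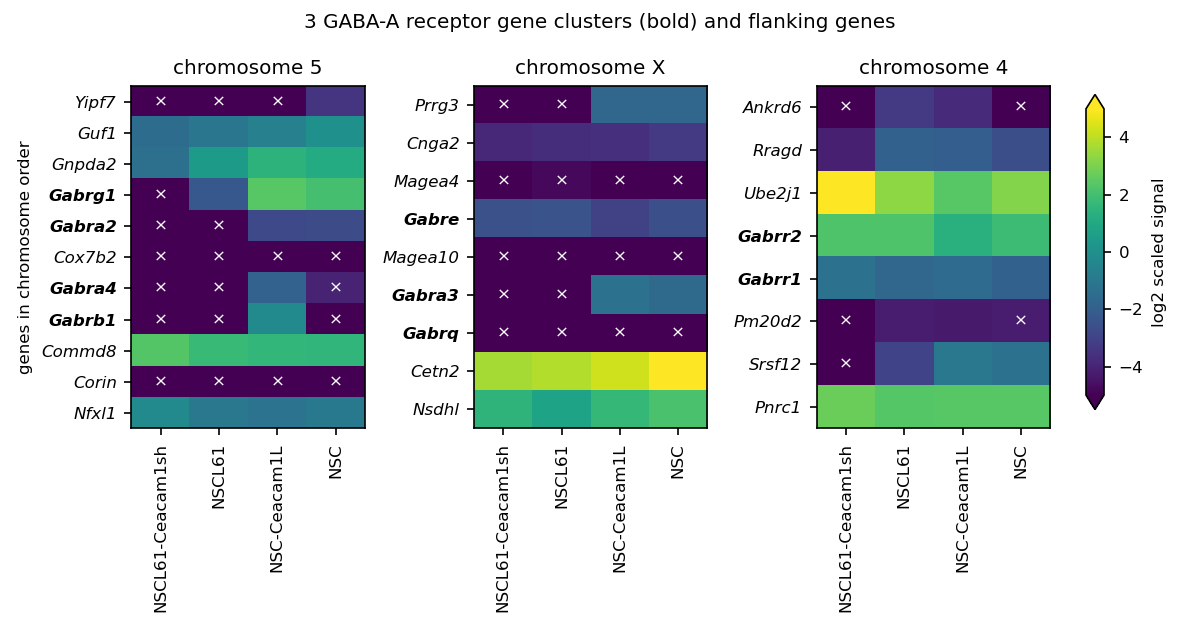
Levels (colour, log2 scaled signal) of the GABA-A receptor genes (bold) of 3 clusters and their flanking genes in chromosome order (rows) on the 4 arrays (columns), 1 panel per cluster, with crosses for dim probes. Gabra4 and Gabrb1 in the chromosome 5 panel lack a cross on NSC-Ceacam1L alone, and Gabra3 in the X chromosome panel has one on both NSCL61 arrays. Colours of different rows come from different probes.

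The GABA-B receptor is a pair of Gabbr1, which binds GABA, and Gabbr2, which couples to the G protein and brings the pair to the surface. Gabbr1 had levels of -0.42 on NSCL61-Ceacam1sh, 1.63 on NSCL61, 4.51 on NSC-Ceacam1L and 3.71 on NSC, on a probe at 37210986 to 37211045 of chromosome 17 (mm9, plus strand). It was lower on NSCL61-Ceacam1sh than on NSCL61, with a difference of -2.05 ± 0.21, and lower again on NSCL61 than on NSC, at -2.09 ± 0.20. The difference was 0.79 ± 0.20 in NSC-Ceacam1L minus NSC, within 2-fold, although quantile, cyclic loess and spike-in scaling called Gabbr1 higher there. All 3 Gabbr1 probes agreed, from -2.05 to -1.79 under the hairpin and from -2.09 to -1.73 in NSCL61 minus NSC. Gabbr2 had -5.66 on NSCL61-Ceacam1sh (dim), -2.87 on NSCL61, -2.52 on NSC-Ceacam1L and -5.20 on NSC (dim). It went opposite to its partner in NSCL61 minus NSC, where it was at least 2.64-fold higher. Like its partner, Gabbr2 was lower under the hairpin, by at least 3.68-fold on NSCL61-Ceacam1sh against NSCL61. On NSC-Ceacam1L it was at least 3.37-fold higher than on NSC. A second Gabbr2 probe gave the same 3 calls, and the third was dim on all 4 arrays.

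Genes that work with these receptors were taken as 6 lists. Their counts, and those of the marker lists, stand against the shares over all genes given above: 10.4% higher and 6.13% lower with Ceacam1L, 23.5% and 24.2% under the hairpin, and 14.4% and 14.1% in NSCL61 minus NSC. The AMPA receptor accessory list holds the TARP genes (Cacng) and others that carry AMPA receptors to the membrane and shape their opening. Under the hairpin 8 of its 8 evaluated genes were lower. Cacng5 had -6.74 on NSCL61-Ceacam1sh (dim), against 3.46 on NSCL61, at least 297-fold lower. Cacng4 was at least 16.1-fold lower, Cacng8 at least 6.55-fold and Shisa9 at least 4.73-fold. Between NSCL61 and NSC 2 were higher and 5 lower of 11: in NSCL61 Cacng5 was higher by 3.35 ± 0.20, and Shisa6, Cnih3 and Nptx2 were at least 16-fold, 7.21-fold and 3.77-fold lower. With Ceacam1L 2 of 12 were higher, Shisa9 by 1.21 ± 0.21 and Gsg1l at least 2.01-fold, and 0 lower.

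Of the kainate, NMDA and delta receptor partners, 4 of 6 were lower under the hairpin and 0 higher. The presynaptic neurexin gene Nrxn2 had a difference of -7.33 ± 0.22, with both arrays measured. Cbln1, a cerebellin that bridges neurexins to delta receptors, was at least 3.06-fold lower, and the brightest probe of the auxiliary subunit gene Neto1 at least 19.3-fold, although another Neto1 probe was well above background on NSCL61-Ceacam1sh. In NSCL61 minus NSC Nrxn2 was higher (1.34 ± 0.20) and Neto1 lower (-2.48 ± 0.20) among 6 genes. With Ceacam1L only Cbln2, at least 2.69-fold higher, passed 2-fold among 7.

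More postsynaptic scaffold genes were lower than higher under the hairpin. Of 12 excitatory scaffold genes under the hairpin 1 was higher and 5 lower, among them Shank3 (at least 6.72-fold), Homer2 (at least 5.72-fold) and Pick1 (-1.70 ± 0.21). The brightest Grip1 probe was at least 38.8-fold lower, with another Grip1 probe well above background on NSCL61-Ceacam1sh. On NSCL61 3 of 12 were lower than on NSC, Homer2 at -2.10 ± 0.21, Shank3 at -1.22 ± 0.21 and Homer1 at -1.14 ± 0.21. With Ceacam1L 1 of 13 was higher, Dlgap1, by 1.81 ± 0.21. Of 8 inhibitory scaffold genes under the hairpin 4 were lower, including Gphn (gephyrin, -2.25 ± 0.20) and Nlgn2 (-1.63 ± 0.20), and 1, Plcl1, was higher (1.18 ± 0.23). Kctd12, an auxiliary subunit of GABA-B receptors, was the 1 of 8 that was lower in NSCL61 minus NSC (-2.25 ± 0.21), and with Ceacam1L 0 of 8 passed 2-fold.

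Genes that clear or make the transmitters were mostly lower under the hairpin. Of 14 glutamate transport and metabolism genes, 10 were lower and 1 higher. The glial transporter Slc1a3 had -3.70 on NSCL61-Ceacam1sh, against 4.73 on NSCL61, a difference of -8.43 ± 0.26. Slc1a2, Slc38a3 and Slc1a1 were at least 70.2-fold, 163-fold and 6.29-fold lower. With Ceacam1L 4 of 14 were higher and 1 lower: Slc1a1 (1.73 ± 0.21), Slc1a2 (1.54 ± 0.21) and Glul, which makes glutamine from glutamate (1.23 ± 0.20), were among those higher, and the glutaminase gene Gls2 was lower (-1.34 ± 0.22). In NSCL61 minus NSC 2 were higher, Slc38a1 (2.02 ± 0.20) and Slc1a2 (1.74 ± 0.21), and 2 lower, Slc1a1 (-1.96 ± 0.21) and Slc1a6 (-1.54 ± 0.21), shares of 14.3% each that are near those of all genes.

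Among the GABA synthesis, transport and breakdown genes 6 of 10 were lower and 3 higher under the hairpin. Abat, which breaks GABA down, had -2.83 on NSCL61-Ceacam1sh, against 3.95 on NSCL61, a difference of -6.78 ± 0.23. The GABA transporter Slc6a11 was at least 37.1-fold lower and the synthetic enzyme gene Gad1 at least 8.57-fold. With Ceacam1L 2 of 9 were higher, Abat (1.70 ± 0.20) and Slc6a13 (at least 1.21-fold). On NSCL61, against NSC, Slc6a12 was at least 26.1-fold higher, and Slc6a11 (-2.39 ± 0.20) and the chloride importer gene Slc12a2 (-1.07 ± 0.20) were among the lower ones of 9.

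Markers of cell types differed between the same arrays. Under the hairpin 8 of 8 astrocyte and radial glia markers were lower, led by Gfap (at least 6740-fold), Fabp7 (-12.37 ± 0.31), Mlc1 (-12.14 ± 0.30) and Apoe (-9.04 ± 0.21), and their summed scaled signal was 4.46 on NSCL61-Ceacam1sh, against 1610 on NSCL61. Of 8 oligodendrocyte precursor markers 6 were lower, with Olig1, Olig2, Gpr17 and Sox8 at least 2630-fold, 420-fold, 287-fold and 300-fold lower and a sum of 2.51 on NSCL61-Ceacam1sh, against 140 on NSCL61. Cspg4, Olig1, Olig2, Gpr17, Sox8 and Gfap were dim there. Of 10 neuron markers 7 were lower, among them Elavl3 (at least 220-fold), Tubb3 (-4.65 ± 0.20), Map2 (-4.26 ± 0.21) and Dcx (at least 4.29-fold), and their sum was 14.2 on NSCL61-Ceacam1sh, against 75.4 on NSCL61.

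Of 8 neural stem cell markers 4 were lower and 2 higher on NSCL61-Ceacam1sh: Sox1 had a difference of -6.11 ± 0.28, and Fut4 and Prom1 were at least 28.9-fold and 5.15-fold higher. Of the mesenchymal markers, Cd34, Dcn and Pdgfrb were at least 1670-fold, 248-fold and 82-fold higher and Col3a1 was higher by 5.25 ± 0.29. Among 3 evaluated endothelial markers Cdh5 was at least 2.01-fold lower, and among 3 microglia markers Tmem119 was higher by 5.19 ± 0.29 and Cx3cr1 at least 3.78-fold lower. The part of these marker shifts in the receptor differences was not tested.

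With Ceacam1L some glial markers were higher and most were within 2-fold. Of 8 astrocyte and radial glia markers 4 were higher, Gfap by 7.33 ± 0.25, Aqp4 by 3.77 ± 0.21, Gja1 by 2.76 ± 0.21 and Apoe by 2.39 ± 0.20, and the list's sum was 1500 on NSC-Ceacam1L, against 964 on NSC. Of 11 neuron markers 3 were higher, Syt1 by 1.86 ± 0.26, Rbfox3 by 1.23 ± 0.24 and Dcx at least 2.41-fold, and of 8 oligodendrocyte precursor markers 1 was, Gpr17, by 1.18 ± 0.20. Thy1 was higher by 2.71 ± 0.20, and Pdgfrb and Cd34 were at least 3.06-fold and 2.73-fold higher, among 5 mesenchymal markers. None of 8 neural stem cell markers, 2 endothelial markers or 1 microglia marker evaluated passed 2-fold. The part of these shifts in the receptor differences was not tested either.

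In NSCL61 minus NSC 4 of 8 oligodendrocyte precursor markers were lower, Cspg4 at -2.82 ± 0.21, Nkx2-2 at -2.58 ± 0.21, Gpr17 at -1.86 ± 0.20 and Sox10 at -1.80 ± 0.21. Their sum was 140 on NSCL61, against 242 on NSC, and none of the 8 was dim on either array. Of the astrocyte and radial glia markers 5 of 8 were higher, with Gfap at 10.98 ± 0.25, Gja1 at 3.53 ± 0.21, Aqp4 at 2.57 ± 0.21 and Apoe at 1.92 ± 0.20, and a sum of 1610 on NSCL61, against 964 on NSC. Neuron markers gave 5 higher and 2 lower of 11, with Tubb3 at 4.23 ± 0.20, Elavl3 at 1.91 ± 0.20, Dcx at least 3.07-fold higher and Rbfox3 at least 2.92-fold lower, and a sum of 75.4 on NSCL61, against 34.5 on NSC. Prom1 and Fut4 were at least 25.2-fold and 2.76-fold lower among the stem cell markers. Thy1 (-4.20 ± 0.24) and Col1a1 (-1.86 ± 0.36) were lower among 4 mesenchymal markers, and Col3a1, Cdh5 and Cx3cr1 were at least 1.41-fold, 1.61-fold and 2.71-fold higher.

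**Figure D5:**
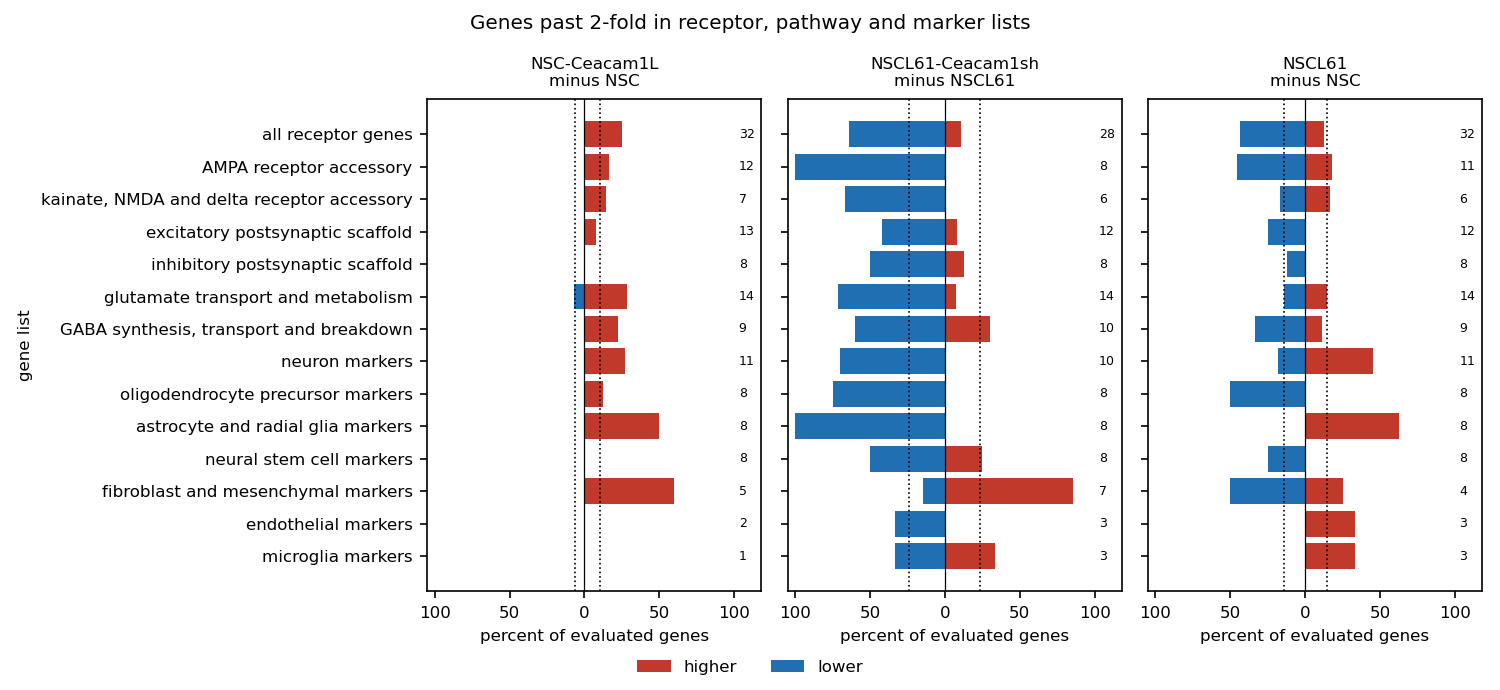
Percent of evaluated genes (x axis) that were higher (right of 0) or lower (left of 0) by 2-fold or more in the 3 comparisons, for the receptor genes and each pathway and marker list (y axis), with the number evaluated at the right. Dotted lines are the shares over all evaluated genes. In the middle panel the receptor genes stand at 64.3% lower and 10.7% higher, against 24.2% and 23.5% over all genes.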

How the data were processed

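The members and the gene lists were chosen with earlier results of these data known. Groups were taken from the sample titles. The deposited scanner files give 62976 spots per array, of which 59305 are not controls. Their intensity values are processed signals, which the authors' scanner software had background-subtracted and given a modelled error. Per the file headers the software was Agilent Feature Extraction 10.7.3.1 with protocol GE1_107_Sep09 on array design 028005 (probe coordinates on mm9), whereas the submitters' processing notes name version 9.1. The NSC file held rounded signals and 58 gene names that differ from those of the other files, and gene names were read from the NSCL61 file. The deposited table of processed log2 values gave the same differences between arrays as the scanner signals, with slopes of 0.9998 to 0.9999, which settled its scale and direction but not its centring. Its medians were 0.03 on NSCL61-Ceacam1sh, 0.00 on NSCL61, -0.20 on NSC-Ceacam1L and 0.25 on NSC, and it served as an alternative only.

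Outlier spots were removed (147 on NSCL61-Ceacam1sh, 144 on NSCL61, 143 on NSC-Ceacam1L and 187 on NSC), and no spot was saturated. The 75th percentiles used for scaling were 541.4, 438.8, 571.1 and 480 in the same order. Replicate spots were averaged after taking log2, and a probe passed as well above background by the software's flag on at least 50% of its spots. A gene was evaluated where its probe passed on at least 1 of the 2 arrays. No bound is given for a gene if another of its probes passed on the dimmer array. Probes were named by accession (27184), symbol (3527) or older symbol (673) in the RefSeq table of GRCm38.p6, and 24297 stayed unnamed. With 1 array per group no test was possible. The calling code was checked on simulated data with large changes and little noise. That check says nothing of how reliable the calls near 2-fold or on dim probes are. Some genes are counted but not reported by name here. Otherwise the named genes were all receptor genes measured on at least 1 array, and up to 4 genes per list and comparison with the greatest difference past 2-fold. Other probes of the receptor genes and the neighbours of the GABA-A clusters were chosen after the values were seen. The alternatives were median, quantile, cyclic loess and spike-in scaling (8 probes), normexp background correction (offset 50), the deposited table, 2 filters on dim probes, the median over a gene's probes, a 1.5-fold threshold and, added after the data were seen, the probe with the greatest signal on any array. Python 3.11.15, R 4.3.3 and limma 3.58.1 were used.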

Additional observations from a re-analysis of the deposited data

How the results depend on the processing

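No paired analysis was possible because each group has 1 array, and there was no replicate to leave out. Of 66 receptor counts recomputed under 11 alternatives, 55 stayed within 1.5 times the reported count. Of 935 recomputed values of single receptor genes, 797 were counted as the same, 137 as moved and 1 as reversed. Normexp background correction, whose offset of 50 narrows differences of dim probes by construction, left 2 receptor genes higher in NSC-Ceacam1L minus NSC (Gria1 and Gabrb1), 1 higher and 10 lower in NSCL61-Ceacam1sh minus NSCL61, and 2 higher and 6 lower in NSCL61 minus NSC. Counting only probes well above background on both arrays left 3 higher with Ceacam1L, 0 higher and 5 lower under the hairpin, and 1 higher and 7 lower in NSCL61 minus NSC. No filter on dim probes gave 2 lower with Ceacam1L. Spike-in scaling added Grid1, Grm3 and Gabbr1 to the genes higher with Ceacam1L, and quantile and loess normalization added Gabbr1. Under the hairpin, lower receptor genes numbered 13 under spike-in scaling, where Gria1, Grik5, Grin2b and Grin3b were among those that lost the call, 14 under median scaling and 15 under quantile or loess normalization (where Grin2b and Grin3b were among those that lost it), against 18 as reported. Median scaling moved the median of all genes by 0.41 in that comparison, spike-in scaling by 0.45 there, 0.38 with Ceacam1L and -0.22 in NSCL61 minus NSC, and loess by 0.16 with Ceacam1L. With the median over a gene's probes, the hairpin difference turned to 0.14 for Gria4, whose 2 probes differed by -3.21 and 3.50. Values of genes near background are limited by the arrays' signal, not only by their number.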

Other observations

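The genes beside the GABA-A clusters gave values of their own. Beside the X chromosome cluster Prrg3 was dim on both NSCL61 arrays and had -1.70 on NSC-Ceacam1L and -1.71 on NSC, the arrays that also measured Gabra3. On chromosome 11 Atp10b, next to Gabrb2, was measured on NSC-Ceacam1L alone, at -3.40. Srsf12 on chromosome 4, near Gabrr1, was dim on NSCL61-Ceacam1sh and had -2.98 on NSCL61, -0.99 on NSC-Ceacam1L and -1.27 on NSC. These genes were picked after their values were seen.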
